A study of Mus musculus with 27 samples.

Results

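The cell cycle genes described here are a list of 38 mouse genes for cyclins, cyclin-dependent kinases (CDKs) and their inhibitors, replication factors and mitotic proteins. They were taken by gene symbol from the array annotation, using probe sets that carry 1 symbol and, for a gene with several, the probe set with the highest mean. Of the 38 genes, 36 were measured among 19935 genes in all. Ccnb1, which encodes cyclin B1, had no probe set of its own symbol, and Cdkn1a, which encodes the CDK inhibitor p21, shared its probe set with another symbol, so neither has a value. The 36 genes comprised 9 cyclins, CDKs and regulators of G1 and S, 10 genes of replication licensing and DNA synthesis, 15 genes of G2 and mitosis, and 2 CDK inhibitors.

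The study profiled total RNA of mouse embryo hearts at stage E11.5, on a mixed C57Bl/6/BLKSW strain background, with 1 Affymetrix array per sample. The design asks how losing 1 copy of the chromatin remodeller Brg1, encoded by Smarca4, or of the cardiac transcription factor Tbx5 or Nkx2-5 changes heart transcripts, and whether Brg1 loss modifies the effect of losing either factor. The 27 arrays were wild type (n = 6), Brg1+/- (n = 6), Tbx5+/- (n = 5), Nkx2-5+/- (n = 4), Tbx5+/- Brg1+/- (n = 3) and Nkx2-5+/- Brg1+/- (n = 3). The heterozygotes are described as carrying 1 deleted copy of each named gene. The labels do not give the deleted part of a gene, or whether an array holds 1 heart, a pool or littermates. P-values therefore measure the spread between these arrays, which may be partly technical.

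Cells pass from G1 through DNA replication in S phase and G2 into mitosis. D-type cyclins with Cdk4 and Cdk6, and E-type cyclins with Cdk2, release E2F factors that switch on replication genes. Later in the cycle, complexes that include Foxm1 switch on mitotic genes, many through a promoter element called the cell cycle genes homology region (CHR). In the embryonic heart at this stage both cardiomyocytes and the nucleated red cells inside the chambers divide, so a whole-heart sample mixes the cell cycle transcripts of several cell types. In such bulk samples, more cells of a type and more RNA per cell cannot be told apart.

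The heart label was checked against its markers: all 14 cardiomyocyte markers were measured, and their mean log2 signal lay between 11.20 and 12.28 on every array. Smarca4 had a log2 signal of 9.95 to 10.16 in wild type and 9.16 to 9.45 in Brg1+/-. The array labelled Nkx2-5+/- replicate 3 had a Smarca4 signal of 9.57 against 9.89 to 10.08 in its group, and that labelled Tbx5+/- Brg1+/- replicate 3 had 10.01 against 9.51 and 9.64. Both go against their labels, so the count of called members in each comparison that uses them is also given without them. The Nkx2-5 signal was 9.40 on the array labelled Nkx2-5+/- replicate 3, within the wild-type range of 9.17 to 9.96, and 8.48 to 8.63 on the other 3 Nkx2-5+/- arrays. The Tbx5 signal was 8.51 to 8.90 in Tbx5+/- and 8.40 to 8.96 in wild type, so this probe set does not check the Tbx5 label.

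Red cell transcripts varied widely between the arrays. Alas2, the first enzyme of heme synthesis in red cells, ranged from log2 9.77 to 12.75 over the 27 arrays. Its mean was 11.29 ± 0.43 (SD, n = 6) in wild type, 11.82 ± 0.60 (SD, n = 6) in Brg1+/-, 11.37 ± 0.57 (SD, n = 5) in Tbx5+/- and 12.16 ± 1.04 (SD, n = 4) in Nkx2-5+/-. It was 11.48 ± 0.71 (SD, n = 3) in Tbx5+/- Brg1+/- and 10.61 ± 0.84 (SD, n = 3) in Nkx2-5+/- Brg1+/-. Of 15 erythroid markers 12 were measured, and none had a mean log2 signal under 8.30. Their level is given beside each result it moves with, and its part in those results was not tested.

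The members differed in how much they varied over the 27 arrays. Mki67, which encodes the proliferation antigen Ki-67, varied most, from log2 9.59 to 12.22 with an SD of 0.75. Kif11, the kinesin that separates the spindle poles, followed with an SD of 0.37, and Ccne2, an E-type cyclin, with 0.34. Cdk1, the kinase that drives entry into mitosis, varied least, from log2 9.84 to 10.27 with an SD of 0.13.

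**Figure D1:**
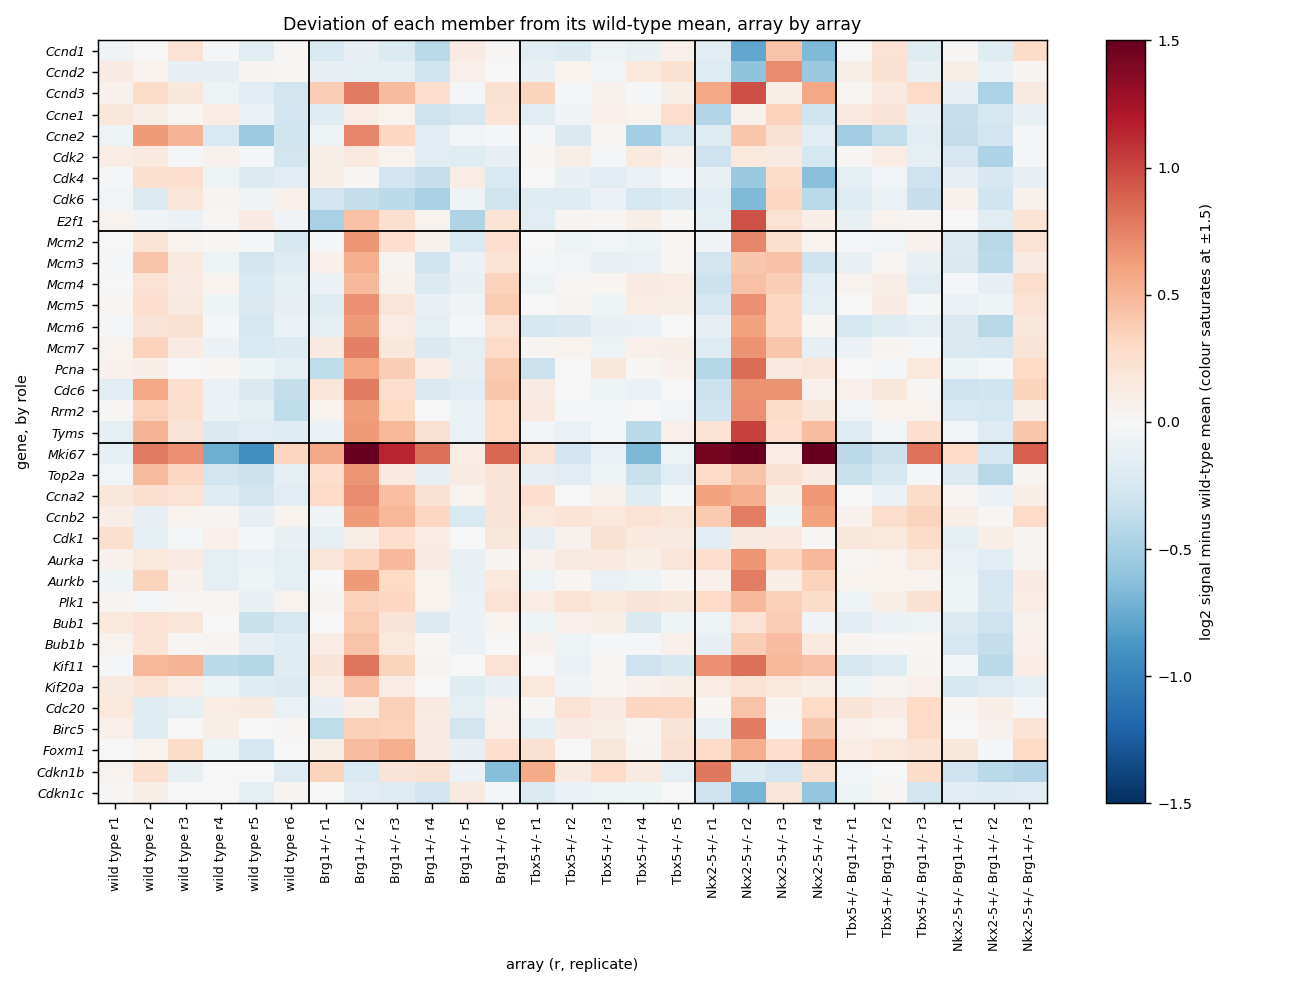
Log2 signal of each of the 36 measured cell cycle genes on each of the 27 arrays minus that gene's wild-type mean, as colour, with genes grouped by role (rows, from the top: G1 and S, replication, G2 and mitosis, CDK inhibitors) and arrays by genotype (columns). Replication genes are high together on the arrays Brg1+/- replicate 2 and Nkx2-5+/- replicate 2, and the Mki67 row departs furthest from its wild-type mean.

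The replication genes were high on 2 arrays. Their median deviation from the wild-type mean was 0.68 (log2) on the array labelled Nkx2-5+/- replicate 2 and 0.64 on Brg1+/- replicate 2. It lay between -0.26 and 0.31 on every other array. The median of the G2 and mitosis genes was also highest on these arrays, at 0.53 and 0.44. Their erythroid marker means were 11.24 and 11.04, above the wild-type range of 8.53 to 10.29, and their cardiomyocyte marker means were 11.22 and 11.498, below the wild-type range of 11.77 to 12.26. On Nkx2-5+/- replicate 1 the replication median was -0.26 while the median of the G2 and mitosis genes was 0.25, so on that array the groups lay on opposite sides of wild type. Its erythroid and cardiomyocyte marker means, 11.08 and 11.40, were also outside the wild-type ranges. So were those of Nkx2-5+/- replicate 4, 10.96 and 11.20, where the replication median was 0.04. In Tbx5+/- the replication medians of the 5 arrays lay within -0.06 and 0.04.

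In Nkx2-5+/- hearts 7 of the 36 cell cycle genes were higher than in wild type, at a limma adjusted p under 0.05 over all 19935 genes, and 0 were lower. Over all genes 2.72% were called higher and 5.16% lower in this comparison. Of the 7, 6 belong to G2 and mitosis: Mki67, Kif11, Ccna2, Aurka, Foxm1 and Plk1. The other was Ccnd3, a D-type cyclin. The median log2 fold change of the 36 was 0.20, beside -0.01 over all genes, and 29 of the 36 lay above 0.

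Mki67 had the largest difference. Its log2 signal was 11.95, 12.22, 10.61 and 12.21 on the Nkx2-5+/- arrays in replicate order, and in wild type the lowest, median and highest values were 9.59, 10.60 and 11.29. The array labelled Nkx2-5+/- replicate 3 lay inside the wild-type range and the other 3 above it. The log2 fold change was 1.24 ± 0.34 (SE), or 2.36-fold, with a limma adjusted p of 0.0274.

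Kif11 read 9.92, 10.06, 9.73 and 9.68 on the Nkx2-5+/- arrays, against a lowest, median and highest of 8.81, 9.13 and 9.74 in wild type. Replicates 3 and 4 fell just under the highest wild-type array. The log2 fold change was 0.61 ± 0.17 (SE), with a limma adjusted p of 0.0274.

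Ccna2 encodes cyclin A2, the cyclin of S phase and G2. Its log2 signal was 11.17, 11.09, 10.65 and 11.21 in Nkx2-5+/-, and in wild type it ran from 10.29 through a median of 10.56 to 10.80. All but the array labelled replicate 3 exceeded every wild-type array. The log2 fold change was 0.47 ± 0.13 (SE), with a limma adjusted p of 0.0297.

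Aurka and Plk1, kinases of centrosomes and mitotic entry, were the members with all 4 Nkx2-5+/- arrays above all 6 wild-type arrays; over all genes 1.05% were placed so. Aurka read 9.60, 10.01, 9.67 and 9.84 in Nkx2-5+/-, beside 9.22, 9.35 and 9.51 as the lowest, median and highest in wild type. Its log2 fold change was 0.43 ± 0.10 (SE), with a limma adjusted p of 0.0142. Plk1 read 9.93, 10.13, 10.002 and 9.92 in Nkx2-5+/-, beside 9.54, 9.67 and 9.70 in wild type. Its log2 fold change was 0.35 ± 0.09 (SE), with a limma adjusted p of 0.0196. For both kinases the array labelled replicate 3 sat with the rest of its group, unlike for Mki67 and Ccna2. The Smarca4 signal of that array goes against its label, and it is counted among the 4 here.

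Ccnd3 encodes cyclin D3, which with its partner kinases drives the passage out of G1. Its log2 signal was 10.12, 10.50, 9.63 and 10.12 in Nkx2-5+/-, and in wild type the lowest, median and highest values were 9.26, 9.53 and 9.82. The log2 fold change was 0.55 ± 0.15 (SE), with a limma adjusted p of 0.0254. Foxm1, the transcription factor of the mitotic gene programme, had a log2 fold change of 0.41 ± 0.11 (SE), with a limma adjusted p of 0.0278; its 4 Nkx2-5+/- arrays ran from 8.02 to 8.33 and the wild-type arrays from 7.51 to 8.03.

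The remaining mitotic genes lay above 0 without passing the test. All 15 measured genes of G2 and mitosis had a log2 fold change above 0, with a median of 0.32 and a range of 0.04 for Cdk1 to 1.24 for Mki67. Ccnb2, a B-type cyclin, missed the threshold at a limma adjusted p of 0.0546 with a log2 fold change of 0.43. Aurkb, the kinase of the chromosomal passenger complex, had 0.32 with a limma adjusted p of 0.131, and Birc5, another subunit of that complex, had 0.26 with 0.299.

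None of the 10 replication genes was called by limma, and 10 of 10 lay above 0. An unadjusted p under 0.05 was found for 4439 of all 19935 genes and for 1 of the 10. That gene was Tyms, the thymidylate synthase, with a log2 fold change of 0.49 and a limma adjusted p of 0.0747. The subunits Mcm2 to Mcm7 of the replicative helicase had log2 fold changes of 0.25, 0.06, 0.08, 0.15, 0.20 and 0.19 in that order. Mcm6, for example, read 10.20, 10.93, 10.63 and 10.35 in Nkx2-5+/- and ran from 10.06 through a median of 10.30 to 10.55 in wild type. Its groups overlapped, with replicate 1 below the wild-type median.

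Of the 9 cyclins, CDKs and regulators of G1 and S, Ccnd3 alone was called. The log2 fold changes of 6 lay below 0, among them Ccnd1 at -0.29, Cdk4 at -0.26, Cdk6 at -0.23 and Ccnd2 at -0.16, and those of E2f1, an E2F factor, at 0.28 and Ccne2 at 0.07 lay above it. Over all genes 10443 of 19935 lay below 0. Cdkn1c, which encodes the CDK inhibitor p57, had -0.35 with a limma adjusted p of 0.0606.

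**Figure D2:**
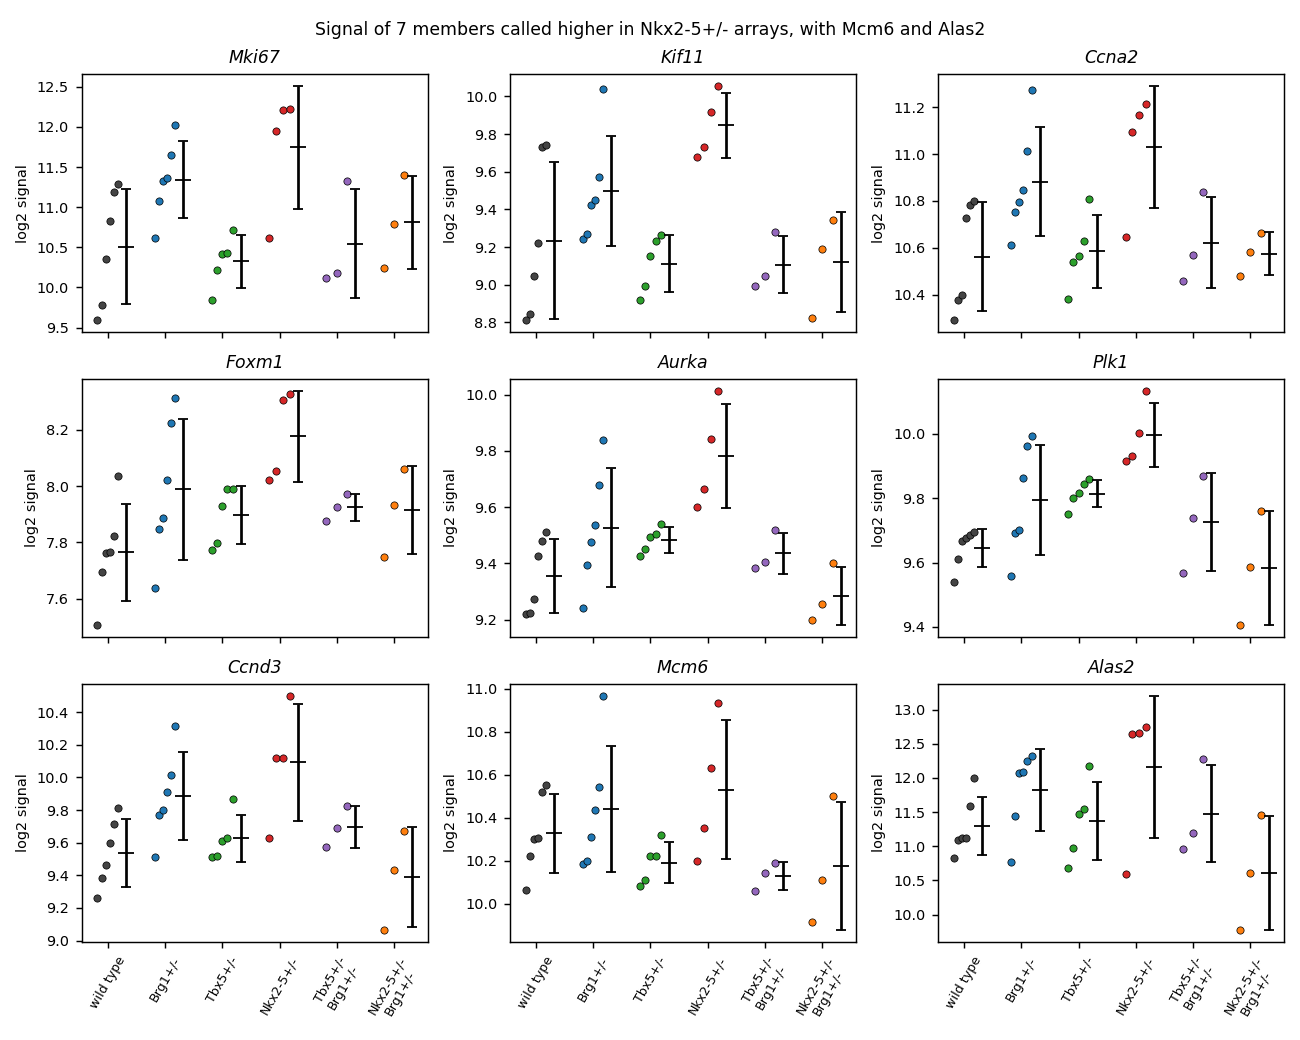
Log2 signal (vertical axes) of the 7 cell cycle genes called higher in Nkx2-5+/-, with Mcm6 and Alas2, by genotype group; points are arrays sorted by value, and the bar beside them is the mean ± SD. In the Aurka and Plk1 panels all 4 Nkx2-5+/- points lie above the wild-type points, while for Mki67, Ccna2, Ccnd3 and Alas2 1 Nkx2-5+/- point sits low.

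Several measures moved with these 7 calls. All 12 erythroid markers lay above 0 in Nkx2-5+/-, 5 of them called higher, and their median log2 fold change was 1.30; their mean log2 signal ran from 9.25 to 11.24 in Nkx2-5+/- and from 8.53 to 10.29 in wild type. Of 14 cardiomyocyte markers 9 were called lower, with a median of -0.50 and a mean signal of 11.20 to 12.28 against 11.77 to 12.26. All 6 macrophage markers lay below 0, 2 of them called, with a median of -0.48, and all 6 epicardial markers, 1 of them called, with a median of -0.28. In the liver, endothelial, cushion mesenchyme and platelet lists 0 markers were called. Their medians were -0.585, -0.28, -0.26 and 0.19 in that order. With Alas2 signal as a covariate 0 of 36 members were called by limma, and the Mki67 log2 fold change was 0.59 with a limma adjusted p of 0.164. With the erythroid marker mean in its place the count was also 0, and the value for Mki67 was 0.21 with a limma adjusted p of 0.745. The share of all genes called in these covariate fits is not given here, so the counts of 0 do not single out the members. Aurka and Plk1 had log2 fold changes of 0.32 and 0.29 with Alas2 as the covariate, with limma adjusted p of 0.113 and 0.133.

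The count depended on single arrays. It was 0 without Nkx2-5+/- replicate 2 or 4, 3 without replicate 1, 4 without wild-type replicate 1, and 2 without wild-type replicate 4 or 5. In a fit of the 10 compared arrays alone it was 0. Without the array labelled Nkx2-5+/- replicate 3, which goes against its Smarca4 label, it was 15, with 10 higher and 5 lower. How many of all genes were called in each of these fits is not given here. The shifts in the count therefore do not single out the members. The 5 lower genes were Cdkn1c at -0.53, Ccnd1 at -0.53, Ccnd2 at -0.45, Cdk4 at -0.43 and Cdk6 at -0.41 (log2 fold change). The 3 additional higher genes were Ccnb2 at 0.59, Tyms at 0.57 and Aurkb at 0.40. On the array left out, Ccnd2 read 12.37 and Cdkn1c 12.78, the highest of all 27 arrays for each.

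Among the 6 called mitotic genes, Ccna2 and Foxm1 had no promoter in the set used, so theirs were not examined. Shown as examples are the promoters of the other 4 called mitotic genes and of Mcm6, a replication gene that was not called. They are examples of their roles and not a comparison of called with uncalled genes. Each runs from 250 bases before to 50 bases after the gene's start in the RefSeq annotation of GRCm38.p6, on the strand of the gene: Mki67 at chr7:135716330-135716629 (minus strand), Kif11 at chr19:37376132-37376431 (plus strand), Aurka at chr2:172370521-172370820 (minus strand), Plk1 at chr7:122159185-122159484 (plus strand) and Mcm6 at chr1:128359656-128359955 (minus strand). Capitals mark the CHR word TTTGAA and the E2F words TTCCCGC or TTCGCGC or TTGCCGC or TTGGCGC, read on both strands.
Mki67: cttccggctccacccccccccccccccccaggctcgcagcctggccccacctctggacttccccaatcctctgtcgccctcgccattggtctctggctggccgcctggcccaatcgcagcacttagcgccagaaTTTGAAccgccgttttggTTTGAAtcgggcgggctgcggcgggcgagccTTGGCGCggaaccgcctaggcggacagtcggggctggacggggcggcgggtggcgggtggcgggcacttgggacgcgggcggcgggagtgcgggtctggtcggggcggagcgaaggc
Kif11: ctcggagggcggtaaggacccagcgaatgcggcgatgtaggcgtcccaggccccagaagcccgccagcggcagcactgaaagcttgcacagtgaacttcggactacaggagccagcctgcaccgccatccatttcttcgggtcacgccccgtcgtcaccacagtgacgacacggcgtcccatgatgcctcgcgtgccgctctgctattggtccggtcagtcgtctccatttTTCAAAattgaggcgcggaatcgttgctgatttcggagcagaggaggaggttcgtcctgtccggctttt
Aurka: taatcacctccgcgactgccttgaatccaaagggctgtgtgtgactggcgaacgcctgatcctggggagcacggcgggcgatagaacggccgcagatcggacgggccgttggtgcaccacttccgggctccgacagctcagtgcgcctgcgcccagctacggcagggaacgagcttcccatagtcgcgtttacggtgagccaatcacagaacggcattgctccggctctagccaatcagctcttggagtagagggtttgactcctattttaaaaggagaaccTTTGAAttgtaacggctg
Plk1: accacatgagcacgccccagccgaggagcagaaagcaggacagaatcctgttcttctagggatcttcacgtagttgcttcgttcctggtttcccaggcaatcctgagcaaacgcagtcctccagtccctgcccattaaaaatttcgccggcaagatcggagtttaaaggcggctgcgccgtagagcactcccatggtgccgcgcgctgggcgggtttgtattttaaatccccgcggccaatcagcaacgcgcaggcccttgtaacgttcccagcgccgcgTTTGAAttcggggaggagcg
Mcm6: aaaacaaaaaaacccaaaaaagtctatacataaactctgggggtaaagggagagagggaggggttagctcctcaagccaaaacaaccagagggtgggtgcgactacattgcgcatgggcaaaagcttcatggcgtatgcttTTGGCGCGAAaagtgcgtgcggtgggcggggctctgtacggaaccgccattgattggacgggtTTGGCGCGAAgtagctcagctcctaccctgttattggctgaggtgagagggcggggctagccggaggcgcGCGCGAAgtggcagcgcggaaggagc

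Mki67 held the CHR word at 116 and 98 bases before the start and an E2F word at 67 bases before it. Kif11 held the CHR word 19 bases before the start, in reverse complement. Aurka and Plk1 held it after the start, at 33 and 31 bases. The Mcm6 window held no CHR word. It held 5 matches to E2F words, of which 2 pairs overlap as forward and reverse words of the same stretch. The CHR word was also in promoters of Ccnb2, Cdk1, Top2a, Bub1b, Cdc20 and Mcm2, which were not called in Nkx2-5+/- against wild type. Ccnd3, which was called, held neither the CHR word nor an E2F word at either start.

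Promoters of 27 of the 36 genes were in the table, with 29 starts, since Ccnd3 and Mcm7 had 2 each. The CHR word was in 9 of 11 promoters of G2 and mitosis genes (81.8%), in 1 of 10 promoters of replication genes and in 0 of 7 of the G1 and S genes. Over all 32851 promoters of the same length 17.9% held it. The E2F words were in 7 of 10 promoters of replication genes (70.0%), 2 of 11 of G2 and mitosis genes and 1 of 7 of the G1 and S genes, and in 9.6% of all promoters. The CCAAT word, on either strand, was in 10 of 11 promoters of G2 and mitosis genes, 8 of 10 of replication genes and 2 of 7 of the G1 and S genes, and in 37.4% of all. These are matches of letters, with no test, and none of the arrays measured factor binding.

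**Figure D3:**
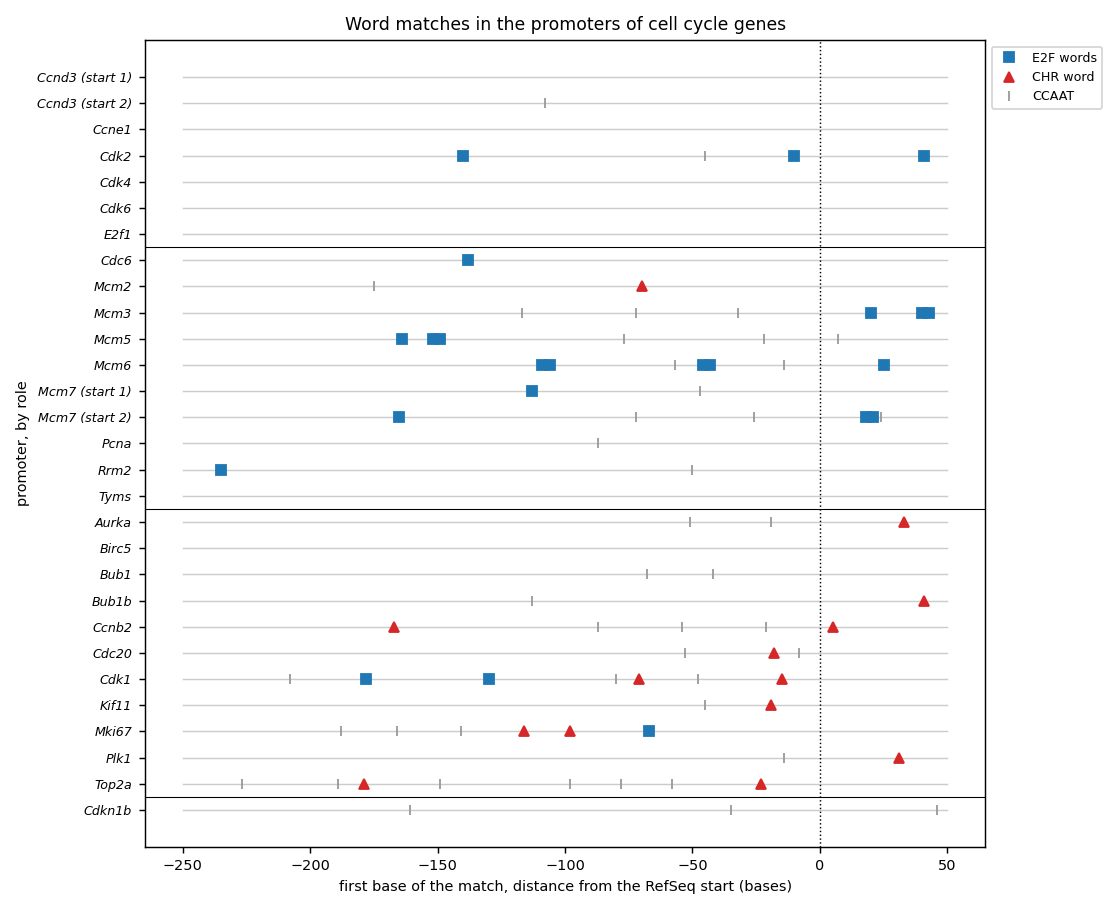
First base of each match to the E2F words, the CHR word and CCAAT (horizontal axis, distance in bases from the RefSeq start, dotted) in the 29 promoters of 27 cell cycle genes, grouped by role. CHR matches (triangles) lie in 9 of 11 promoters of G2 and mitosis genes, and E2F matches (squares) in 7 of 10 promoters of replication genes.

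All comparisons with wild type share the same 6 wild-type arrays, so they are given side by side and not set against each other. In Brg1+/- hearts no cell cycle gene was called by limma against wild type, and 5 of the 36 had an unadjusted p under 0.05, as had 1935 of all 19935 genes. Over all genes 0.0100% were called. The log2 fold changes were above 0 for 28 of the 36, with a median of 0.12 beside -0.02 over all genes. They were above 0 for 15 of 15 genes of G2 and mitosis, with a median of 0.17, and for 10 of 10 replication genes, with a median of 0.16.

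The members with the smallest p were Cdk6, Mki67 and Ccna2. Cdk6, a partner of the D-type cyclins, ran from 7.85 through a median of 8.01 to 8.26 in Brg1+/- and from 8.13 through 8.34 to 8.52 in wild type. Its groups overlapped between 8.13 and 8.26, and the log2 fold change was -0.32 with a limma adjusted p of 0.427. Mki67 ran from 10.62 through a median of 11.35 to 12.02 in Brg1+/-, with a log2 fold change of 0.84 ± 0.30 (SE) and a limma adjusted p of 0.427. Ccna2 ran from 10.61 through 10.82 to 11.27, with a log2 fold change of 0.32 and the same adjusted p.

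The highest Brg1+/- array for Mki67 and Ccna2 was replicate 2 and the lowest replicate 5, which also had the highest and the lowest Alas2 signal of the group. The 12 erythroid markers all lay above 0 in Brg1+/-, with a median log2 fold change of 0.92 and a mean signal of 9.05 to 11.04 against 8.53 to 10.29, and 0 were called by limma, 8 having an unadjusted p under 0.05. All 6 macrophage markers lay below 0 with an unadjusted p under 0.05, at a median of -0.48, and 0 were called by limma.

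In Tbx5+/- hearts no member was called against wild type by limma, and 0% of all genes were called. An unadjusted p under 0.05 was found for 1 member and for 788 of all 19935 genes. The median log2 fold change of the members was 0.01, beside 0.005 over all genes, with 20 above 0 and 16 below. The smallest p belonged to Cdc20, the activator of the anaphase-promoting complex, at a log2 fold change of 0.20 with a 95% interval of 0.001 to 0.399. Plk1 followed at 0.17, with the 5 Tbx5+/- arrays at 9.75, 9.86, 9.80, 9.85 and 9.82 and every wild-type array at or below 9.70. Ccnb2 was the other member whose Tbx5+/- arrays all exceeded wild type, at 10.19 to 10.25 against 9.91 to 10.13; over all genes 0.31% were placed so, and neither gene was called. Mki67 read 10.72, 10.22, 10.41, 9.84 and 10.43, within the wild-type range, at a log2 fold change of -0.18 with a 95% interval of -0.84 to 0.47.

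In Tbx5+/- Brg1+/- hearts 0 members were called by limma against wild type and 0 against Tbx5+/-, with 0 at an unadjusted p under 0.05 in either. Over all genes 0% were called in each, and 873 and 494 of 19935 had an unadjusted p under 0.05. The median log2 fold change was 0.02 against wild type, beside 0.015 over all genes, and -0.002 against Tbx5+/-. The smallest p in both was that of Cdk1, at 10.17, 10.16 and 10.27 beside 9.84 to 10.23 in wild type, with a log2 fold change of 0.21. The array labelled replicate 3, whose Smarca4 signal goes against its label, had the highest Mki67 of the group, 11.32 against 10.12 and 10.18, and the highest Alas2, 12.28 against 11.19 and 10.96. The medians and the fold change given for this group include that array.

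The interaction of Tbx5 and Brg1 is the effect of Brg1 loss in Tbx5+/- hearts minus its effect in hearts with both Tbx5 copies. By limma 0 members were called, with 0 at an unadjusted p under 0.05, and 0% of all genes. Plk1 had the smallest p, with a value of -0.24 and a 95% interval of -0.50 to 0.03. Of the 36 members 28 were below 0, with a median of -0.12, beside 0.03 over all genes, of which 8482 of 19935 lay below 0. The erythroid markers were below 0 in 12 of 12, with a median of -0.75.

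In Nkx2-5+/- Brg1+/- hearts no member was called by limma against wild type, and 0.0351% of all genes were called. An unadjusted p under 0.05 was found for 1 member and for 1473 of all 19935 genes. The log2 fold changes lay below 0 for 23 members and above 0 for 13, with a median of -0.08, beside -0.02 over all genes, of which 10770 of 19935 lay below 0. They ranged from -0.385 for Cdkn1b to 0.30 for Mki67. Cdk2, the partner of E-type cyclins, had the smallest p at -0.24, with a limma adjusted p of 0.669. Both CDK inhibitors had all 3 arrays below every wild-type array, and over all genes 2.56% were placed so. Cdkn1b, which encodes p27, read 8.36, 8.27 and 8.23 against 8.48 to 8.91 in wild type. Cdkn1c read 12.42, 12.41 and 12.43 against 12.46 to 12.68. Their limma adjusted p were 0.676 and 0.762. The second Cdkn1b probe set had a Pearson correlation of 0.37 with the chosen probe set over the 27 arrays, so the Cdkn1b value rests on the probe set used.

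Set against Nkx2-5+/- alone, Nkx2-5+/- Brg1+/- hearts had lower log2 signals for 31 of the 36 members, with a median log2 fold change of -0.29 beside 0.02 over all genes. This included 15 of 15 genes of G2 and mitosis and 10 of 10 replication genes. None was called by limma, although 14 had an unadjusted p under 0.05, as had 3063 of all 19935 genes, and 0.0401% of all genes were called. The smallest limma adjusted p were 0.0568 for Aurka, 0.0673 for Ccnd3 and 0.071 for Plk1.

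Aurka read 9.25, 9.20 and 9.40 in Nkx2-5+/- Brg1+/-, below all 4 Nkx2-5+/- arrays, with a log2 fold change of -0.50 ± 0.12 (SE). Ccnd3 read 9.43, 9.06 and 9.67, with a log2 fold change of -0.70 ± 0.18 (SE); its highest array exceeded only the array labelled Nkx2-5+/- replicate 3. Plk1 read 9.59, 9.40 and 9.76, below all 4 Nkx2-5+/- arrays, with a log2 fold change of -0.41 ± 0.11 (SE). Without the array labelled Nkx2-5+/- replicate 3, 10 members were called, 7 lower and 3 higher. Without Nkx2-5+/- Brg1+/- replicate 3, 3 were called, and with the genes of lowest mean signal left out 3 were called, all lower. The share of all genes called in these fits is not given here. The 12 erythroid markers lay below 0 in all 12 cases, with a median of -1.55. All 14 cardiomyocyte and all 6 epicardial markers lay above 0, with medians of 0.43 and 0.62. Of these 3 marker lists 0 were called by limma, with 11, 7 and 6 at an unadjusted p under 0.05.

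The difference between the effect of Brg1 loss with and without Nkx2-5 loss was tested as an interaction. It was called for 6 members, all below 0, and for 0 above 0; over all genes 2.72% were called below 0 and 2.23% above. The 6 were Mki67, Ccnd3, Kif11, Ccna2, Aurka and Plk1. The median over the 36 members was -0.43, beside 0.03 over all genes, with 31 below 0. This comparison shares arrays with the preceding Nkx2-5+/- comparisons, so the recurrence of these 6 genes is not separate evidence.

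For Mki67, Brg1+/- arrays had a mean of 11.35 ± 0.48 (SD, n = 6) against 10.51 ± 0.72 (SD, n = 6) in wild type, and Nkx2-5+/- Brg1+/- arrays 10.81 ± 0.58 (SD, n = 3) against 11.75 ± 0.77 (SD, n = 4) in Nkx2-5+/-. Brg1 loss was thus accompanied by a higher mean in hearts with both Nkx2-5 copies and a lower one in Nkx2-5+/-. Neither difference was called by itself, at log2 fold changes of 0.84 and -0.935 with limma adjusted p of 0.427 and 0.248. The interaction was -1.77 ± 0.51 (SE), with a limma adjusted p of 0.0398. Ccnd3 had -1.05 ± 0.22 (SE), with a limma adjusted p of 0.0189, from group means of 9.54 in wild type, 9.89 in Brg1+/-, 10.09 in Nkx2-5+/- and 9.39 in Nkx2-5+/- Brg1+/-.

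Kif11 had an interaction of -0.99 ± 0.25 (SE), with a limma adjusted p of 0.0248, and read 9.19, 8.83 and 9.34 in Nkx2-5+/- Brg1+/-. Ccna2 had -0.78 ± 0.20 (SE), with a limma adjusted p of 0.0249, and read 10.58, 10.48 and 10.66. Aurka had -0.67 and Plk1 -0.56, with limma adjusted p of 0.0197 and 0.0216. Foxm1, called in Nkx2-5+/- against wild type, had -0.49 with a limma adjusted p of 0.0905. Among the uncalled members, Tyms had the lowest value of the replication genes at -0.68, and Cdk6 the highest of all members at 0.49, with limma adjusted p of 0.118 and 0.125.

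In the same contrast 11 of 12 erythroid markers were called below 0, with a median of -2.43. All 14 cardiomyocyte markers lay above 0, with a median of 0.61 and 1 called, all 6 epicardial markers, with 0.78 and 2 called, and all 6 macrophage markers, with 0.68 and 2 called. With either Alas2 or the erythroid marker mean as a covariate 0 members were called. Mki67 then had an interaction of -0.21 with Alas2 and 0.105 with the marker mean, the latter on the other side of 0. The count was 0 without Nkx2-5+/- replicate 2, without Nkx2-5+/- Brg1+/- replicate 1 and without Nkx2-5+/- Brg1+/- replicate 2. It was 15 without the array labelled Nkx2-5+/- replicate 3 and 10 without wild-type replicate 2. Shares of all genes called in these covariate and leave-out fits are not given here, so the counts do not single out the members. The Nkx2-5+/- Brg1+/- array with the lowest Mki67, replicate 2 at 10.24, also had the lowest Alas2 of all 27 arrays at 9.77.

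**Figure D4:**
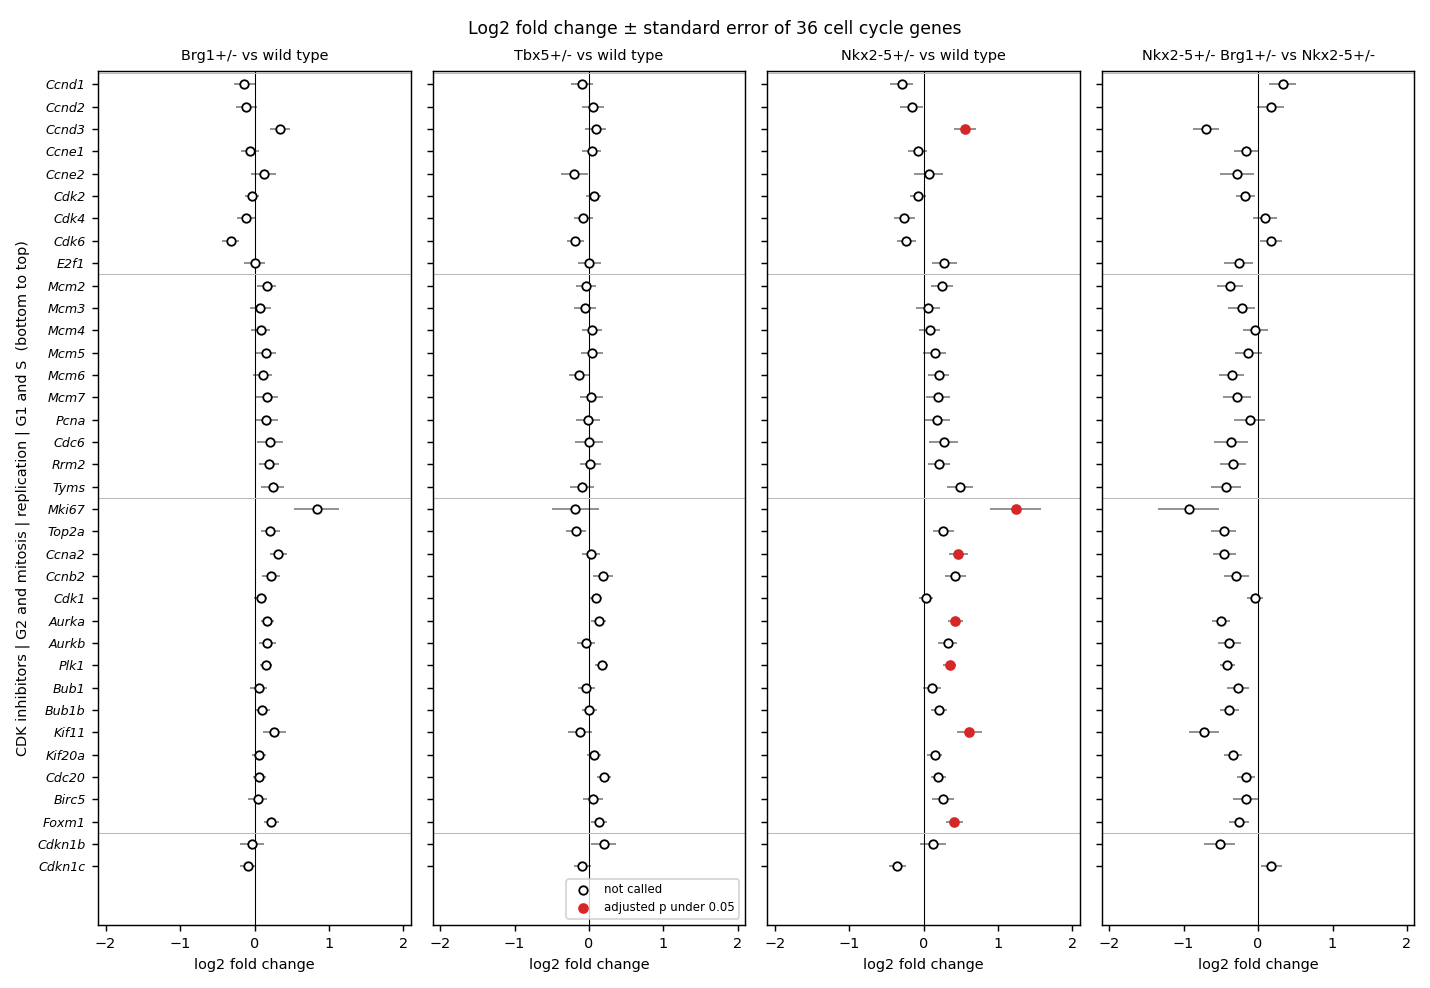
Log2 fold change ± SE (horizontal axes) of the 36 measured cell cycle genes (rows, by role) in 4 comparisons; filled red points have a limma adjusted p under 0.05. The 7 filled points are all in Nkx2-5+/- against wild type, and in the panel of Nkx2-5+/- Brg1+/- against Nkx2-5+/- all replication and G2 and mitosis genes lie left of 0.

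The relation of each member to Alas2 was then estimated array by array, as the slope of its log2 signal on that of Alas2 in a fit that also holds a mean for each genotype. By limma 7 of 36 members had a positive and 2 a negative slope at an adjusted p under 0.05. Over all 19934 genes other than Alas2 4.99% had a called positive and 5.36% a called negative slope. The positive slopes belonged to Mki67, Ccnd3, Tyms, Ccna2, Kif11, Ccnb2 and Foxm1 and the negative ones to Ccnd2 and Cdkn1c. The median slope of the members was 0.07 and that of all genes -0.02.

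Mki67 rose by 0.75 ± 0.09 (SE) log2 units per log2 unit of Alas2, with a limma adjusted p of 1.03e-06. Over the 27 arrays its Pearson correlation with Alas2 was 0.78 (permutation p = 1e-05, adjusted 0.000268) and its Spearman correlation 0.75 (permutation p = 1e-05, adjusted 0.000336). That p is the smallest that 100000 permutations can give, and the adjustment covers the 19934 genes related to Alas2. Without the 2 arrays farthest from the median Alas2 the Pearson correlation was 0.79. Within wild type it was 0.82 (exact permutation p = 0.0514, n = 6) and within Brg1+/- 0.79 (exact permutation p = 0.0542, n = 6); the smallest p that 6 arrays allow is 0.00278.

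Ccnd3 had a slope of 0.30 ± 0.05 (SE), with a limma adjusted p of 7e-05. Its Pearson correlation with Alas2 was 0.88 (permutation p = 1e-05, adjusted 0.000268), the highest among the members. The Spearman correlation was 0.86 (permutation p = 1e-05, adjusted 0.000336), and Pearson was 0.835 without the 2 farthest arrays. Within wild type it was 0.79 (exact permutation p = 0.0667, n = 6) and within Brg1+/- 0.85 (exact permutation p = 0.0181, n = 6).

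Ccna2 had a slope of 0.26 ± 0.04 (SE), with a limma adjusted p of 0.00014. Its Pearson and Spearman correlations were 0.835 and 0.85 (permutation p = 1e-05 for each, adjusted 0.000268 and 0.000336), and 0.84 without the 2 farthest arrays. In Brg1+/- the 6 arrays had the same order for Ccna2 and Alas2 (Spearman 1.0, exact permutation p = 0.00278). In wild type the Pearson correlation was 0.76 (exact permutation p = 0.0583, n = 6).

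Tyms, Kif11, Ccnb2 and Foxm1 had slopes of 0.27, 0.26, 0.20 and 0.15, with limma adjusted p of 0.0118, 0.0149, 0.0234 and 0.0462. The correlation of Ccnb2 with Alas2 was 0.77 within Brg1+/- (exact permutation p = 0.0736, n = 6) and -0.46 within wild type (exact permutation p = 0.408, n = 6); the difference between these was not tested. Foxm1 kept its call in 7 of the 27 fits that leave out 1 array, and Mki67, Ccnd3, Ccna2, Tyms and Kif11 in all 27.

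The negative slopes were -0.26 ± 0.06 (SE) for Ccnd2, another D-type cyclin, and -0.18 ± 0.05 (SE) for Cdkn1c, with limma adjusted p of 0.00637 and 0.0152. Ccnd2 read 12.37 on the array labelled Nkx2-5+/- replicate 3, where Alas2 was 10.60, and 11.46, 11.04 and 11.10 on the other Nkx2-5+/- arrays, where Alas2 was 12.64 to 12.75. Without that array neither gene was called: the slopes were -0.10 for Ccnd2 and -0.09 for Cdkn1c, with limma adjusted p of 0.338 and 0.342. Among the D-type cyclins, Ccnd3 thus had a called positive slope and Ccnd2 a negative one whose call rests on this array. Ccnd1 had a slope of -0.18 with a limma adjusted p of 0.0968.

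By role, 5 of 15 genes of G2 and mitosis and 1 of 10 replication genes had a called positive slope. Aurka and Plk1 were not among them, at slopes of 0.13 and 0.07 with limma adjusted p of 0.0679 and 0.367. Their Pearson correlations with Alas2 over all arrays were 0.71 and 0.59. These had permutation p of 3e-05 and 0.00103, adjusted 0.000628 and 0.00952. Unlike the slopes, these correlations include the differences between genotypes. The helicase subunits Mcm2 to Mcm7 had slopes of 0.14, 0.03, -0.03, 0.02, 0.07 and 0.07, and Pcna, the sliding clamp of DNA polymerase, had 0.06; none was called. Cdk1 had -0.05 and Cdc20 0.01.

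In a fit of the 12 wild-type and Brg1+/- arrays alone, Mki67 was the only called member, at a slope of 0.88 with a limma adjusted p of 0.0421. The slopes of Ccnd3, Tyms, Ccna2 and Kif11 were 0.38, 0.42, 0.34 and 0.48, each larger than over all arrays, with limma adjusted p of 0.0519, 0.0996, 0.111 and 0.117. Those of Ccnb2 and Foxm1 were 0.24 and 0.28, and those of Ccnd2 and Cdkn1c -0.10 and -0.11, with limma adjusted p of 0.44, 0.247, 0.683 and 0.676. Without the pair of arrays that go against their Smarca4 labels 5 members were called, all positive: Mki67, Ccnd3, Ccna2, Kif11 and Tyms. The share of all genes called in this fit and in that of the 12 arrays is not given here. With Hemgn, another red cell gene, in place of Alas2 the slope of Mki67 was 0.54 with a limma adjusted p of 8.92e-13. The other members with a called positive slope on Alas2 kept their calls. Members without one that were called with Hemgn included Aurka, Aurkb and Ccne2, at slopes of 0.09, 0.13 and 0.20. Their limma adjusted p were 0.0411, 0.0144 and 0.00788. Birc5 and Bub1b were not called with Hemgn, with limma adjusted p of 0.322 and 0.44. Ccnd2, at -0.11 with a limma adjusted p of 0.121, and Cdkn1c were not called with Hemgn. Cdkn1c was also not called with the mean of the other erythroid markers in place of Alas2, while Ccnd2 was. In the fit of all 27 arrays on Alas2, 11 of 11 other erythroid markers and 4 of 4 platelet markers had called positive slopes. Called negative slopes were found for 6 of 14 cardiomyocyte, 4 of 8 endothelial and 1 of 6 cushion mesenchyme markers. Of the macrophage, epicardial and liver markers 0 were called.

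**Figure D5:**
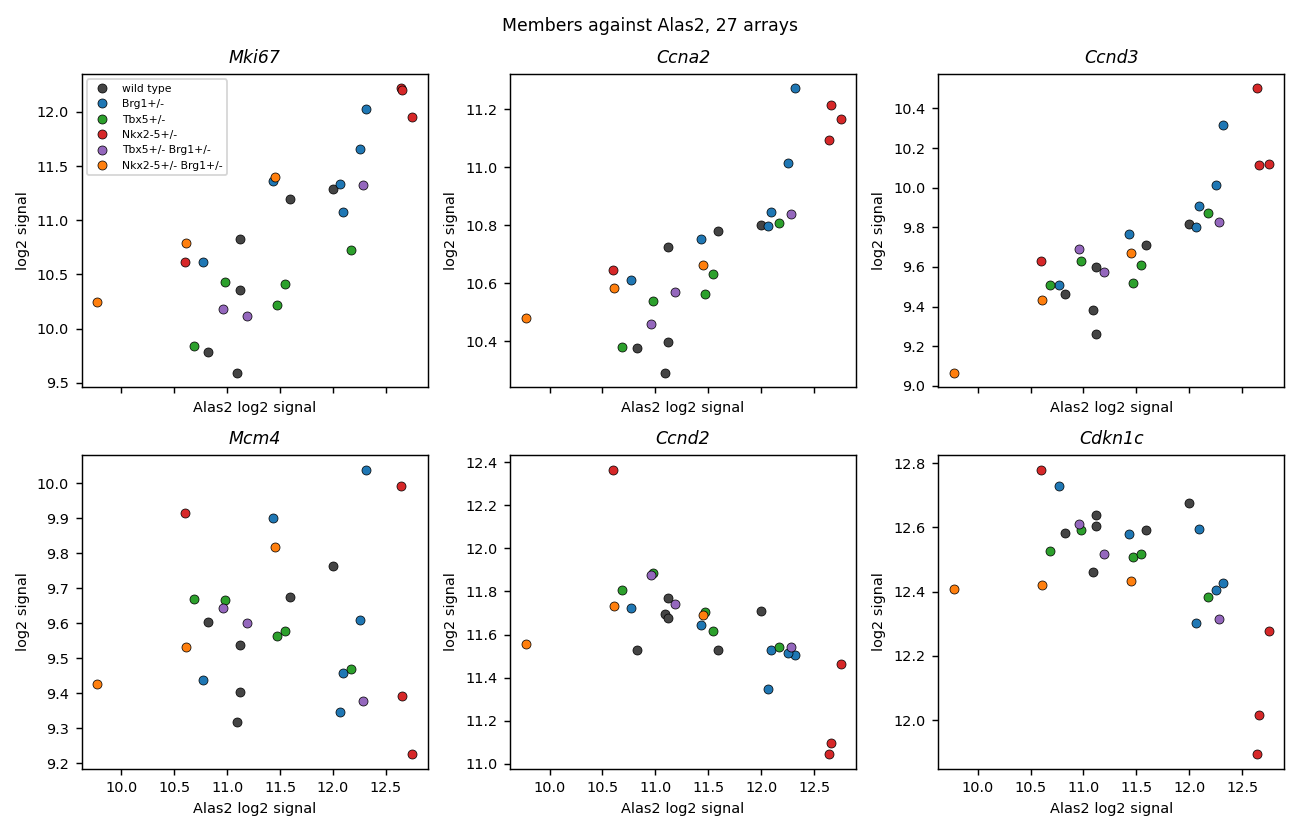
Log2 signal of 6 cell cycle genes (vertical axes) against that of Alas2 (horizontal axes) on 27 arrays, coloured by genotype. Mki67, Ccna2 and Ccnd3 rise with Alas2, Mcm4 shows no slope that was called, and the fall of Ccnd2 and Cdkn1c is widest among the 4 Nkx2-5+/- arrays.

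A wider list of 113 measured cell cycle genes outside the 36 was read in the same fits. In Nkx2-5+/- against wild type 15 were called higher and 2 lower, beside 2.72% and 5.16% of all genes, with a median log2 fold change of 0.15. Of the higher genes, those with the smallest p were the kinetochore genes Cenpf at 0.72 and Cenpe at 0.65, the phosphatase gene Cdkn3 at 0.725, and Btg2, an antiproliferative gene, at 0.725, with limma adjusted p of 0.0056, 0.0189, 0.0202 and 0.0163. The 2 lower genes were Ccng1, which encodes cyclin G1, at -0.65 and Cdk7, the CDK-activating kinase, at -0.38, with limma adjusted p of 0.016 and 0.037.

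For the slope on Alas2, 30 of the 113 wider genes were called positive and 0 negative, beside 4.99% and 5.36% of all genes. Cdc25b, a phosphatase that activates CDKs, had a slope of 0.81 with a limma adjusted p of 2.44e-10. Rb1, the retinoblastoma protein that restrains E2F factors, had 0.63 with a limma adjusted p of 4.06e-08. Cdkn3 and E2f2, an E2F factor, had 0.415 and 0.755, with limma adjusted p of 6.2e-07 and 6.46e-06. In the Nkx2-5 by Brg1 interaction 23 of the 113 were called below 0 and 0 above, beside 2.72% and 2.23% of all genes, with a median of -0.35.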

How the data were processed

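Hearts were hybridised to 1 Affymetrix array per sample, and the authors deposited RMA log2 signals made with Affymetrix Power Tools, per the submitters' processing notes. The genome build is not given in the sources used here. RMA scales arrays to a common distribution, so values are relative within an array, and the number of arrays limits their precision. Array medians lay between 6.18 and 6.33, and the correlation between arrays between 0.973 and 0.995.

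Of 28815 probe sets, 21780 had 1 symbol in the platform annotation; the highest-mean probe set was kept for each of 19935 genes. The log2 values were fitted with limma 3.58.1 (R 4.3.3), with a mean per genotype over all 27 arrays (21 residual and 6.71 prior degrees of freedom), two-sided, with Benjamini-Hochberg adjustment over all genes within a comparison. Calls are genes with an adjusted p below 0.05. The slope on Alas2 added that signal to the same fit. Correlations used 100000 permutations, or all orders within 6 arrays (scipy 1.17.1). The fit was also run on simulated data with known changes and noise independent between genes. Shared red cell differences between arrays and doubtful labels were not simulated, so that run does not test the calls given here. Promoters were matched by gene identifier to RefSeq (GRCm38.p6).

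Members, lists and tests were chosen with earlier results of these data known. All 36 members could be named. Arrays are given in full for the called members with the largest changes, up to 5 each way, or else for the 3 with the smallest p; for the slope, up to 6 each way; from the wider list, up to 4 called genes each way. Alternatives covered normalization, low genes, the variance prior, probe set means, array weights, the compared groups alone, replicate number, red cell covariates, arrays at odds with their Smarca4 label, and each array left out.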

Additional observations from a re-analysis of the deposited data

Results flagged for a closer look

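Of 148 tests of a group of 4 to 6 arrays for a single array far from the rest, 6 found one; chance gives about 1 in 20. In Nkx2-5+/- the array labelled replicate 3 stood below the others for Mki67, at log2 10.61 against 11.95 to 12.22, and for Alas2, at 10.60 against 12.64 to 12.75. In Tbx5+/- replicate 3 was low for Mcm7, at 9.83 against 9.95 to 9.996, and replicate 1 was low for E2f1, at 7.49 against 7.68 to 7.74, and high for Rrm2, at 10.22 against 10.03 to 10.07. In wild type replicate 2 was low for Birc5, at 8.20 against 8.38 to 8.48.

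For 6 members the effect of Brg1 loss differed between hearts with and without Nkx2-5 loss, by limma's interaction test. The values were -1.77 for Mki67, -0.78 for Ccna2, -1.05 for Ccnd3, -0.67 for Aurka, -0.56 for Plk1 and -0.99 for Kif11 (log2). Red cell markers moved with these values, and their part in them was not tested.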

How the results depend on the processing

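Counts of called members (of 36, by limma) are given for the alternatives that moved them by over 1.5 times. Shares of all genes called in the same alternatives are not given, so a moved count does not single out the members. In Nkx2-5+/- against wild type the count of 7 became 0 with the compared groups alone, 0 with Alas2 and 0 with the erythroid marker mean as a covariate, 3 with the replicate block, 15 with array weights and 15 without the pair of arrays at odds with their Smarca4 label. Leaving out 1 array gave 0 to 15. In Nkx2-5+/- Brg1+/- against Nkx2-5+/- the count of 0 became 3 without the genes of lowest mean signal, 17 with array weights, 5 with the replicate block and 10 without that pair, and leaving out 1 array gave 0 to 10. Against wild type it became 1 with array weights. In the Nkx2-5 by Brg1 interaction the count of 6 became 0 with the compared groups alone, 0 with either red cell covariate, 19 with array weights and 15 without that pair, and leaving out 1 array gave 0 to 15. With the erythroid covariate the Mki67 interaction changed sign, to 0.105. For the slope on Alas2 the count of 9 became 1 in wild-type and Brg1+/- arrays alone, 5 without that pair and 19 with no genotype term, and leaving out 1 array gave 7 to 11. The fit with the compared groups alone has fewer arrays; the cause of the other shifts was not tested. The remaining comparisons gave 0 calls under all alternatives run.

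Replicate numbers did not pair the arrays: deviations of arrays with the same number correlated at 0.03 on average over 55 pairs, and of arrays with different numbers at -0.007 over 244 pairs. The members' medians moved by more than the array-level SD of 0.169 in 3 cases, to -0.107 in Nkx2-5+/- Brg1+/- against Nkx2-5+/- with the erythroid covariate, and to -0.216 and -0.118 in the interaction with Alas2 and the erythroid covariate.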

Other observations

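Within the 6 wild-type arrays some mitotic genes ran against Alas2. Birc5, a subunit of the chromosomal passenger complex, had a Pearson correlation of -0.90 there (exact permutation p = 0.0153; Spearman -0.66, exact permutation p = 0.175), against 0.33 over all 27 arrays. Cdc20 had -0.79 (exact permutation p = 0.0292; Spearman -0.77, exact permutation p = 0.103), against 0.16 over all. Within Brg1+/- the values were 0.55 for Birc5 and 0.58 for Cdc20 (exact permutation p = 0.233 and 0.201). These are the most negative of 36 correlations computed in wild type, chosen after their values were seen and not adjusted, and the difference between groups was not tested. Wild-type replicate 2, the array flagged above for Birc5, had the highest Alas2 of its group, 12.00. It also had the lowest Birc5 and Cdc20, 8.20 and 8.53, and the correlations without it were not computed.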
